A study of Homo sapiens with 36 samples.

Results

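The STAT genes code for signal transducers and activators of transcription, and 6 of them were followed here as RNA: STAT2, STAT3, STAT4, STAT5A, STAT5B and STAT6. They were chosen by name, though with earlier results of these data known. They make up 6 of the 60725 Ensembl genes in the expression tables. The purpose of looking at them together was to ask how the family responds when Src is switched on, and whether other family members change when STAT3 is depleted.

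STAT proteins wait in the cytoplasm in an inactive form. When a cytokine or growth factor binds its receptor, Janus kinases or other tyrosine kinases such as Src phosphorylate a conserved tyrosine, and the STATs pair through their SH2 domains, enter the nucleus and bind DNA. STAT2 acts mostly with IRF9 downstream of type I interferon, STAT3 downstream of IL-6 family cytokines that signal through gp130, STAT4 downstream of IL-12, STAT5A and STAT5B downstream of prolactin, growth hormone and IL-2 family cytokines, and STAT6 downstream of IL-4 and IL-13. In the mammary gland STAT5A is the main mediator of prolactin signals during lactation. STAT3 is the member most often found active in breast tumours. These activities depend on phosphorylation, which RNA levels do not show.

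RNA was sequenced in 36 libraries in 18 groups of 2. ER-Src cells are a derivative of MCF-10A, a human breast epithelial line that is not transformed. They carry a fusion of v-Src and the estrogen receptor's ligand-binding domain, and tamoxifen turns the kinase on. The MDA-MB-231 line comes from a triple-negative breast cancer, one that lacks estrogen, progesterone and HER2 receptors. Small interfering RNAs lowered YAP or TAZ (transcriptional co-activators), TEADs (the DNA-binding partners of YAP and TAZ), STAT3 or JUNB (an AP-1 factor). In ER-Src cells, a control siRNA (Ctrli) and siRNAs against YAP (YAPi), TAZ (TAZi), STAT3 (STAT3i) and JUNB (JUNBi) were each combined with ethanol vehicle (ETH; labelled non-transformed) or tamoxifen (TAM; labelled transformed), which gives 10 groups and 20 libraries. The protocol for induction names AZD0530, a Src kinase inhibitor, beside tamoxifen. Which libraries received it, and for how long each was treated, is not stated per library. In MDA-MB-231 cells, set 1 holds Ctrli, YAPi, TAZi, YAPi_TAZi (both siRNAs) and TEADi, and set 2 holds its own Ctrli, JUNBi and STAT3i. No tamoxifen contrast exists in that line. Both are established lines cultured in bulk, and nothing in the labels says that 2 libraries of a group came from separate cultures, so p-values measure only the spread between these libraries, which may be technical. A lower level can mean less RNA per cell or fewer cells with the RNA, and bulk samples cannot tell these apart.

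On the human genome (GRCh38), 3 of the genes lie side by side on chromosome 17. STAT5B (ENSG00000173757.9) occupies chr17:42199176-42288633 on the minus strand, STAT5A (ENSG00000126561.16) chr17:42287547-42311943 on the plus strand, and STAT3 (ENSG00000168610.14) chr17:42313324-42388540 on the minus strand. STAT5A and STAT5B overlap head to head by 1087 bases, of which 415 are exonic in both genes, and 1380 bases separate STAT5A from STAT3. On chromosome 12 lie STAT2 (ENSG00000170581.13, chr12:56341597-56360203) and STAT6 (ENSG00000166888.10, chr12:57095408-57132139), both on the minus strand, and STAT4 (ENSG00000138378.17) is on the minus strand at chr2:191029576-191151596. STAT4 shares exonic bases with its antisense gene STAT4-AS1 (109 bases) and with ENSG00000288064 (152 bases), a lncRNA on the opposite strand, and STAT6 with NAB2 (69 bases) and LRP1 (59 bases). Whether reads were counted by strand is not stated, so reads in those stretches cannot be assigned with certainty.

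STAT5A and STAT5B are close copies, and short reads from one can match the other. Their coding sequences (2385 and 2364 bases) share an unbroken identical run of 429 bases, at coding positions 564 to 992 in both genes, counted from the start codon. The end of that run is shown because it is where a read first becomes informative. Capitals mark the 1 base of 60 that differs over coding positions 963 to 1022.
STAT5A: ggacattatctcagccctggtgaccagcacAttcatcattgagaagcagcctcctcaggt
STAT5B: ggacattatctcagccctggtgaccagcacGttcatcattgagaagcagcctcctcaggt
Of all windows of 50 bases in each coding sequence, 21.7% for STAT5A and 21.9% for STAT5B occur in the other gene. The other 4 genes shared no window of 50 bases with any of the 6. Values for STAT5A and STAT5B singly are therefore uncertain to the extent that reads were divided between them, and their sum is given where it matters.

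The promoters of STAT2 and STAT3 are shown because these were the 2 family members whose RNA rose with tamoxifen in control cells by the test used. Each is the 250 bases before a RefSeq transcription start on GRCh38.p14, read on the gene's own strand. Capitals mark a match to the TEAD-type motif GGAATG.
STAT2 (chr12:56360108-56360357, minus strand): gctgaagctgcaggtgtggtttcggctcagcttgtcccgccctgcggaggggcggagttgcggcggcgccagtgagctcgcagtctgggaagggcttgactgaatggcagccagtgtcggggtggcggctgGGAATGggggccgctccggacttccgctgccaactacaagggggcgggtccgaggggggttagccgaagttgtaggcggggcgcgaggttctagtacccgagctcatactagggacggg
STAT3 (chr17:42388443-42388692, minus strand): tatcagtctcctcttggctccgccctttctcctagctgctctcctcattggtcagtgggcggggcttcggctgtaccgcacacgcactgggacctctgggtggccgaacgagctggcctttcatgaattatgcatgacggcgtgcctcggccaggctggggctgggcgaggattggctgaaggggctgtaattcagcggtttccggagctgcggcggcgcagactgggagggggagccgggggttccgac
Motifs were searched on both strands as TTCNNNGAA (GAS-type, the form bound by STAT dimers), the same with 4 spacer bases, the interferon-stimulated response element, TGANTCA (AP-1) and GGAATG (TEAD-type). The STAT2 promoter held the TEAD-type letters 119 bases before the start, the STAT3 promoter held none of the motifs, a STAT4 promoter held TGAATCA and a STAT5A promoter held TTCCTCTGAA. The other 5 of the 9 promoter entries of the family held none. Across 35116 promoters of this length, the motifs occurred in 6.57%, 5.38%, 3.02%, 6.57% and 11.9%, in the order listed. A match is a string of letters and says nothing about binding, and the lack of one covers only these 250 bases.

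Library depth and composition bear on which values can be compared. Counts assigned to genes ran from 6416159 to 19153233 in ER-Src libraries, 13456764 to 13534549 in set 1 Ctrli, 1411300 to 2784553 in the set 1 knockdowns and 7290495 to 18076140 in set 2. RNAs without a poly(A) tail made up 9.43% to 11.7% of counts in ER-Src libraries and 8.71% to 11.8% in the set 1 knockdowns, but 0.0028% to 0.0041% in set 1 Ctrli and 0.0036% to 0.0112% in set 2. Set 1 Ctrli thus differed from every set 1 knockdown in kind of library, and within set 1 library kind and knockdown cannot be told apart. ER-Src libraries held basal keratin KRT5 at 1012 to 2622 TPM (counts scaled for transcript length and library total), and MDA-MB-231 libraries at most 11.5 TPM. Vimentin (VIM), a mesenchymal marker, was higher in MDA-MB-231 (369 to 2591 TPM) than in ER-Src (184 to 338 TPM). The other mesenchymal marker checked, ZEB1, was mixed. It stood at 2.37 to 5.74 TPM in ER-Src, higher in set 1 (6.57 to 23.4 TPM) and lower in set 2 (0.82 to 1.44 TPM). Leukocyte markers PTPRC and CD3E had at most 1 count in any library, and CD14, a monocyte marker, stood at 3.01 to 9.60 TPM in ER-Src libraries. The gap between a transcript's length and its effective length, which follows the reads, also set libraries apart. It was 49.0 bases in all STAT3i and JUNBi libraries of ER-Src cells and 49.5 in the others, and in set 1 it was 48.0 in the replicate 1 knockdowns, 74.6 in the replicate 2 knockdowns and 75.0 in Ctrli.

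STAT3 and STAT6 were the most abundant members in unstimulated ER-Src control cells on the TPM scale, which allows genes of different length to be compared. In Ctrli ETH, STAT6 stood at 27.2 and 24.5 TPM and STAT3 at 22.9 and 18.7 TPM. STAT2 stood at 8.66 and 7.93 TPM and STAT5B at 9.34 and 7.03 TPM. STAT4 (1.55 and 0.88 TPM) and STAT5A (0.78 and 0.37 TPM) were near the low end. STAT4 is known mainly from lymphocytes, and PTPRC and CD3E, which mark such cells, were at or near 0 here. After tamoxifen, STAT3 alone made up 50.8% and 46.3% of the TPM of the 6 genes, against 32.5% and 31.4% before it.

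**Figure D1:**
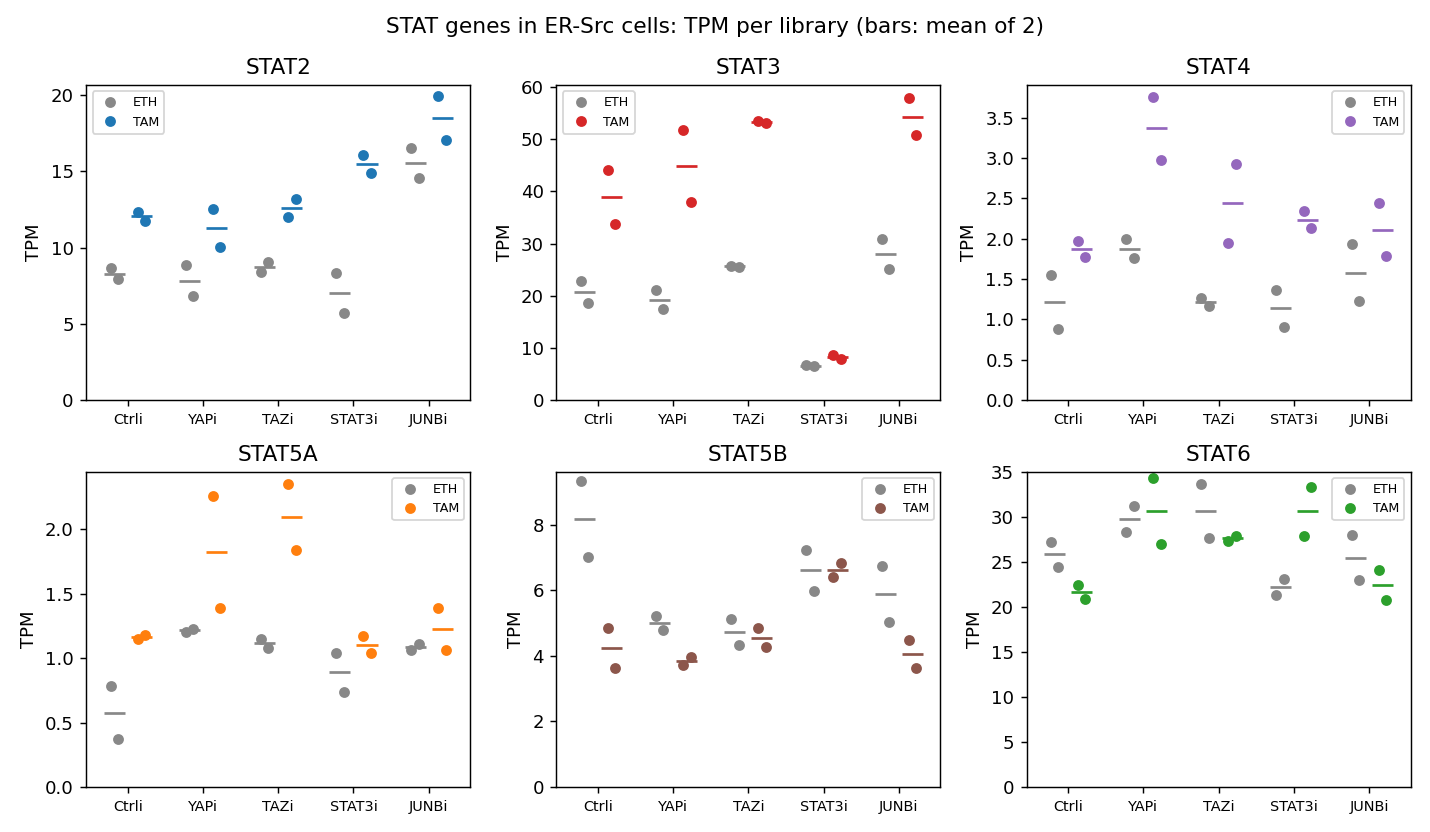
Level of each of the 6 STAT genes (TPM, axes from 0, 1 panel per gene) in the 20 ER-Src libraries, 1 point per library, by siRNA and treatment. STAT3 points lie between 33.8 and 57.8 TPM in the TAM libraries other than STAT3i and between 6.50 and 8.67 TPM in the 4 STAT3i libraries.

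The order of the ER-Src groups differed from gene to gene. For STAT3 it ran from JUNBi TAM (54.3 ± 5.03 TPM, SD, n = 2) through TAZi TAM, YAPi TAM and Ctrli TAM (39.0 ± 7.32), then JUNBi, TAZi, Ctrli and YAPi under ETH (28.0 down to 19.3), to STAT3i TAM (8.23 ± 0.615) and STAT3i ETH (6.62 ± 0.177), and neighbours overlapped in 4 of 9 steps. Every TAM group except STAT3i lay above every ETH group. For STAT2 the order ran from JUNBi TAM (18.5 ± 2.03 TPM) and JUNBi ETH (15.6 ± 1.40) through STAT3i TAM (15.5 ± 0.82) and the other TAM groups (11.3 to 12.6), to the remaining ETH groups (8.74 down to 7.01), with overlap in 6 of 9 steps. STAT2 thus had 1 ETH group, JUNBi, among its highest. STAT4 was highest in YAPi TAM (3.37 ± 0.552 TPM) and lowest in STAT3i ETH (1.14 ± 0.318), STAT5A highest in TAZi TAM (2.10 ± 0.361) and lowest in Ctrli ETH (0.575 ± 0.290), and STAT5B highest in Ctrli ETH (8.19 ± 1.63) and lowest in YAPi TAM (3.85 ± 0.170). As a ratio of highest to lowest group, STAT6 spanned the narrowest range, from TAZi ETH (30.7 ± 4.20 TPM) to Ctrli TAM (21.7 ± 1.12). Neighbours overlapped in 8, 7, 8 and 7 of 9 steps for STAT4, STAT5A, STAT5B and STAT6, so for those genes the order is mostly within the spread of the replicates.

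Tamoxifen raised STAT3 and STAT2 RNA in control cells. STAT3, the IL-6 pathway factor, stood at 166 and 158 CPM (counts scaled to the library total) in Ctrli ETH and at 357 and 306 CPM in Ctrli TAM. The groups were well apart, and STAT3 was 2.18-fold higher (log2 fold change 1.12, SE 0.11, DESeq2 adjusted p = 2.1e-21). STAT2, the interferon partner of IRF9, went from 43.8 and 44.5 CPM to 68.0 and 63.9 CPM, a 1.59-fold rise (log2 0.67, SE 0.16, 95% interval 0.35 to 0.99, DESeq2 adjusted p = 0.000814). Both libraries with TAM were above both with ETH, but the STAT2 call rested on the full set of 4 libraries, since it was lost when any 1 of them was left out (adjusted p = 0.0694 to 0.265). Thus 2 of 6 members passed the threshold (adjusted p below 0.01), both upwards, where 6.21% of all tested genes passed it in either direction.

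The other 4 members did not pass. STAT4, the IL-12 pathway member, was at 6.95 and 4.61 CPM with ETH and 12.1 and 11.5 CPM with TAM (log2 1.12, 95% interval 0.37 to 1.87, DESeq2 adjusted p = 0.0428). These groups did not overlap, and STAT4 passed with edgeR (adjusted p = 0.00991) and with all groups in 1 fit (adjusted p = 0.00113). STAT5A was at 4.36 and 2.77 CPM against 6.54 and 5.70 CPM (log2 0.88, SE 0.50, adjusted p = 0.421), and its neighbour STAT5B at 51.9 and 48.0 CPM against 44.8 and 42.5 CPM (log2 -0.10, SE 0.17, adjusted p = 0.93). With the 2 STAT5 genes summed before the fit, the change was -0.01 (SE 0.17). STAT6, the IL-4 pathway member, overlapped between groups after normalization, at 142 and 137 CPM against 137 and 125 CPM (log2 -0.01, SE 0.12, adjusted p = 0.999). Across all genes tested the median change was -0.01.

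**Figure D2:**
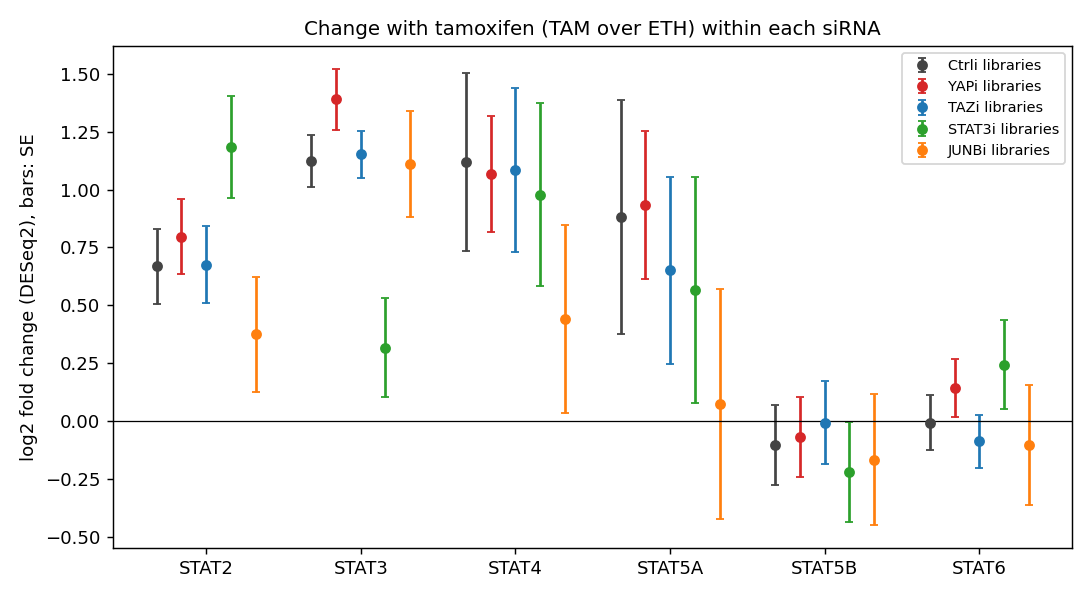
Change with tamoxifen (log2 fold change of TAM over ETH, DESeq2; bars are SE) of the 6 STAT genes, fitted separately in the libraries of each siRNA. STAT3 lies between 1.11 and 1.39 in 4 of the siRNA backgrounds and at 0.32 in STAT3i cells, and STAT6 and STAT5B lie close to 0 in Ctrli cells.

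The same contrast was fitted in the libraries of each other siRNA, which share no library with the control pair. STAT3 passed in YAPi cells (log2 1.39, DESeq2 adjusted p = 2.2e-23), TAZi cells (1.15, adjusted p = 7.5e-28) and JUNBi cells (1.11, SE 0.23, adjusted p = 9.8e-05). In STAT3i cells, where the transcript is itself the siRNA target, STAT3 changed by 0.32 (SE 0.21, adjusted p = 1.0), from 43.3 and 46.1 CPM to 57.2 and 52.3 CPM. STAT2 passed in YAPi (log2 0.80, adjusted p = 3.7e-05), TAZi (0.68, adjusted p = 0.000886) and STAT3i cells (1.18, SE 0.22, adjusted p = 2.3e-05). In STAT3i cells STAT2 rose from 36.9 and 31.5 CPM to 79.5 and 73.9 CPM, whereas in JUNBi cells it stood at 76.6 and 83.2 CPM with ETH and 95.2 and 97.3 CPM with TAM (log2 0.38, adjusted p = 1.0). STAT4 passed only in YAPi cells (1.07, adjusted p = 0.000622), where it was at 10.5 and 11.8 CPM with ETH and 21.6 and 21.2 CPM with TAM. The share of all tested genes that passed was 4.5% with YAPi, 7.13% with TAZi, 0.793% with STAT3i and 2.13% for JUNBi, so the number of members called differs beside a background that differs as well.

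STAT3 siRNA lowered STAT3 RNA in each setting, the check that the labels hold. Under ETH, STAT3 was at 43.3 and 46.1 CPM after STAT3i and 166 and 158 CPM after Ctrli, which leaves 27.6%. Under TAM it was at 57.2 and 52.3 CPM against 357 and 306 CPM, which leaves 16.5%. In MDA-MB-231 it was at 9.57 and 12.4 CPM against 67.6 and 42.5 CPM, which leaves 20.0%. The log2 changes were -1.88 (SE 0.17, DESeq2 adjusted p = 7.19e-23), -2.66 (SE 0.14, adjusted p = 7.47e-80) and -2.41 (SE 0.32, no adjusted p by default because DESeq2's independent filtering removed the gene, and adjusted p = 1.9e-09 with that filtering off). With edgeR the adjusted p of STAT3 under ETH was 0.0238, not past the threshold. For scale, 0.189%, 8.22% and 0.497% of tested genes passed in the 3 comparisons. The siRNAs were pools of several against each target, and their sequences are not given here.

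None of the other 5 members passed the test after STAT3 knockdown in transformed ER-Src cells, where most STAT3 was lost. STAT2 was at 79.5 and 73.9 CPM against 68.0 and 63.9 CPM in Ctrli TAM (log2 0.16, 95% interval -0.16 to 0.47, DESeq2 adjusted p = 0.604). STAT4 was at 9.85 and 11.2 CPM against 12.1 and 11.5 CPM (log2 -0.23, interval -0.86 to 0.40), and STAT5A at 4.94 and 5.87 CPM against 6.54 and 5.70 CPM (log2 -0.25, interval -1.10 to 0.61). STAT5B was at 39.2 and 42.9 CPM against 44.8 and 42.5 CPM (log2 -0.15, interval -0.52 to 0.21), and STAT6 at 124 and 142 CPM against 137 and 125 CPM (log2 -0.04, interval -0.31 to 0.23). On the TPM scale all 5 genes stood higher relative to Ctrli than in counts. For STAT2 the log2 ratio of group means was 0.36 in TPM (0.22 in CPM), with 16.04 and 14.88 TPM against 12.34 and 11.75 TPM and no overlap between groups. The ratios were 0.64 for STAT5B (-0.09 in CPM), 0.50 for STAT6 (0.03), 0.26 for STAT4 (-0.16) and -0.08 for STAT5A (-0.18). In TPM the groups were also apart, higher after STAT3i, for STAT5B, STAT6 and STAT4, and overlapped for STAT5A. The share of all genes with groups apart in TPM was not counted. With the deposited transcript lengths entered in the fit, STAT5B stood at 0.30 (DESeq2 adjusted p = 0.416), STAT6 at 0.16 (adjusted p = 0.622) and STAT2 at 0.02 (adjusted p = 0.966), again not past the threshold. Against the JUNBi TAM libraries, which match STAT3i in the effective-length gap, none of the 5 passed either (STAT2 at -0.33, DESeq2 adjusted p = 0.232). STAT2 in those JUNBi libraries was itself higher than in Ctrli TAM, at 95.2 and 97.3 CPM. With Ctrli as reference, the 5 DESeq2 estimates lay between -0.25 and 0.16, against a median of 0.03 over all genes tested. On the count scale, the upper ends of the intervals lay at 1.39-fold for STAT2, 1.32-fold for STAT4, 1.52-fold for STAT5A, 1.16-fold for STAT5B and 1.17-fold for STAT6. The test does not show that the genes stayed the same.

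With ethanol none of the 5 members passed against Ctrli, with adjusted p = 1.0 for each. Against JUNBi ETH libraries STAT2 passed, downwards (log2 -1.12, DESeq2 adjusted p = 0.00912). In those JUNBi libraries STAT2 was itself higher than in Ctrli ETH, at 76.6 and 83.2 CPM, so this value does not give the change from control. Compared with Ctrli, STAT2 was at 36.9 and 31.5 CPM against 43.8 and 44.5 CPM (log2 -0.38, SE 0.22). STAT6 was at 102 and 126 CPM against 142 and 137 CPM (log2 -0.31, SE 0.17). Both were lower in both knockdown libraries. STAT4, STAT5A and STAT5B stood at -0.11, 0.04 and -0.06 in counts, and the STAT5A estimate was 0.63 in TPM. The upper limits were 1.04-fold for STAT2, 1.77-fold for STAT4, 2.22-fold for STAT5A, 1.26-fold for STAT5B and 1.02-fold for STAT6. Summed over the 5 genes, Ctrli ETH held 249 and 237 CPM and STAT3i ETH 195 and 217 CPM, and the TAM libraries held 268 and 248 CPM with Ctrli and 257 and 276 CPM with STAT3i.

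In MDA-MB-231 cells the 5 genes were also measured after STAT3i, in set 2. By default none of the 5 had an adjusted p, because DESeq2's independent filtering left only 2013 genes tested. The main fit thus could not call them, and none passed in the alternatives that gave an adjusted p. STAT2 was at 55.8 and 43.9 CPM against 41.0 and 43.0 CPM in Ctrli (log2 0.15, SE 0.27), STAT5B at 21.1 and 24.1 CPM against 21.7 and 14.6 CPM (log2 0.23), and STAT6 at 90.9 and 98.7 CPM against 79.4 and 79.6 CPM (log2 0.16). STAT5A was at 32.2 and 30.3 CPM against 27.8 and 42.1 CPM (log2 -0.27) and STAT4 at 1.45 and 0.852 CPM against 1.37 and 1.36 CPM (log2 -0.34). In normalized counts the STAT6 groups did not overlap. The share of all genes with groups apart was not counted, so this does not set STAT6 apart. The upper limits were 1.59-fold for STAT2, 4.28-fold for STAT4, 1.28-fold for STAT5A, 1.91-fold for STAT5B and 1.48-fold for STAT6, higher than in transformed ER-Src cells for 4 of the 5. STAT3 as a share of the 6 genes' TPM was 24.1% and 29.8% in Ctrli and 5.32% and 4.44% after STAT3i.

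**Figure D3:**
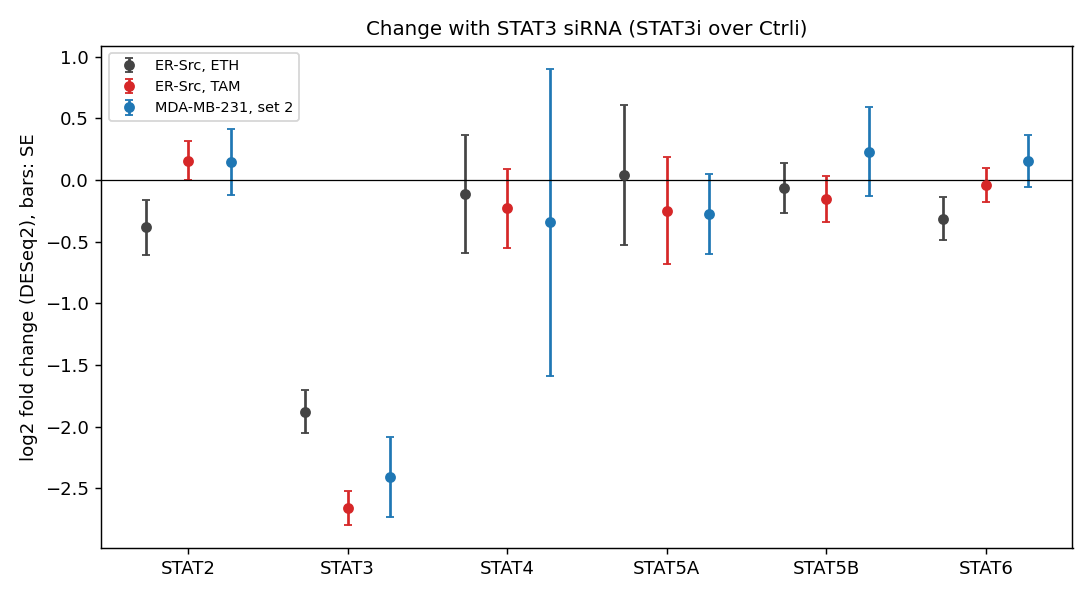
Change after STAT3 siRNA (log2 fold change of STAT3i over Ctrli, DESeq2; bars are SE) in ER-Src cells with ETH, ER-Src cells with TAM and MDA-MB-231 set 2. STAT3 lies between -2.66 and -1.88 and every other member between -0.38 and 0.23.

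Known targets of each member were counted as a wider view of the pathway. With tamoxifen in control cells, 11 of 15 tested STAT3 targets rose and 0 fell, where 4.62% of all tested genes rose, among them SOCS3 (log2 5.77), a feedback inhibitor, SERPINA3 (5.05), an acute-phase protease inhibitor, and LRG1 (4.18). The median of this list was 1.96, against -0.01 over all genes. Of 17 tested STAT2 and IRF9 targets, 2 rose, IRF9 (1.35) and IFI44L (0.97), with a median of 0.60. Of 6 STAT5 targets 3 rose, the inhibitor CISH (2.64), the kinase PIM1 (1.96) and the repressor BCL6 (1.79), and PIM1 is also on the STAT3 list. Of the STAT6 targets only IL4R could be tested, and it rose (1.58).

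Genes upstream in the pathway were counted in the same way. Of 15 tested receptor chains 6 rose with tamoxifen (median of the list 0.36), where 4.62% of all tested genes rose. Among them were IL4R, OSMR (log2 1.51), the oncostatin M receptor, IL13RA1 (1.11) and IL6ST (0.46), which codes for gp130. Of 15 inhibitors 4 rose, among them SOCS3, CISH and the phosphatase PTPN2 (0.93), with a median of 0.30. IL4R, SOCS3 and CISH are also on the target lists above, so the lists are not separate. None of 3 tested Janus kinases passed (median 0.03), though JAK2 stood at 0.97 (DESeq2 adjusted p = 0.0213). KRT17 (1.96) and KRT14 (0.90), 2 of the 5 basal epithelial markers, also rose with tamoxifen. None of the 5 fell past the threshold, but their median was -0.13, so the markers did not move together. The part of these markers in the values above was not tested.

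After STAT3i in transformed cells, 10 of 15 tested STAT3 targets fell, where 4.88% of all genes fell, and 0 rose (median -1.77), with SERPINA3 at -4.09, LRG1 at -4.01 and SOCS3 at -3.74. In the opposite direction, 7 of 18 tested STAT2 and IRF9 targets rose, where 3.34% of all genes rose, and 0 fell (median 1.05, against 0.03 over all genes). Among them were IFIT1 (2.96), IFI27 (2.32) and IFI6 (1.94), all interferon-induced, and IRF9 (1.02), the partner of STAT2, while STAT2 itself did not pass (0.16, adjusted p = 0.604). Among receptor chains, IL4R (-1.86), OSMR (-1.03) and IFNGR2 (-0.89) were among 4 of 14 that fell, and SOCS3 and CISH (-1.66) were the 2 of 15 inhibitors that fell. The STAT5 targets BCL6 (-1.87), PIM1 and CISH fell, 3 of 6. None of 3 Janus kinases passed. Of the 5 basal epithelial markers, the keratins KRT14 (-1.08) and KRT17 (-0.47) fell and the adhesion gene CDH1 (0.90) rose in the same comparison, and CD14 (-1.23), the 1 leukocyte marker that could be tested, fell. Their part was not tested. This comparison and that of TAM with ETH share the Ctrli TAM libraries, so the values from one and the other are not independent. Under ETH no gene of any of these lists passed after STAT3i, where 0.189% of all tested genes passed. Finding none in such short lists is near that share. The medians were -0.10 for STAT3 targets and 0.08 for STAT2 and IRF9 targets.

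The change of STAT3 with tamoxifen was smaller in STAT3i than in Ctrli cells by the test of the difference itself (interaction -0.80, SE 0.20, DESeq2 adjusted p = 0.00695). STAT3, itself the siRNA target in those cells, was the 1 member of 6 past the threshold, where 1.43% of tested genes passed. The call was lost with edgeR and with any 1 of 5 of the 8 libraries left out. For STAT2 the change with TAM in STAT3i cells exceeded that in Ctrli cells by 0.52 without passing (adjusted p = 0.609). No member passed in the interactions of TAM with YAPi (0.498% of genes passed), TAZi (1.6%) or JUNBi (0.288%). With TAZi only 4424 genes were tested, and STAT4 and STAT5A had no adjusted p, so they could not pass.

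After knockdown of YAP, TAZ or JUNB in ER-Src cells, at most 1 of 6 members passed in any comparison, where 2.8% to 11.6% of all genes passed. Such a count is near the share over all genes, and a gene that did not pass may still have changed. STAT6 was higher after YAPi in transformed cells, at 183 and 182 CPM against 137 and 125 CPM (log2 0.43, SE 0.12, DESeq2 adjusted p = 0.00419). It was the 1 member of 6 to pass, where 10.7% of genes passed, and the call was lost with any 1 of the 4 libraries left out (adjusted p = 0.129 to 0.273) and with edgeR (adjusted p = 0.0152). STAT4 in the same comparison was at 21.6 and 21.2 CPM against 12.1 and 11.5 CPM (log2 0.81, adjusted p = 0.0185) and STAT5A at 12.3 and 10.9 CPM against 6.54 and 5.70 CPM (log2 0.86, adjusted p = 0.0838). Groups did not overlap for either gene, and neither passed, though STAT4 did with edgeR (adjusted p = 0.00589). STAT3 stood at 0.26 after YAPi (adjusted p = 0.197) and 0.34 after TAZi (adjusted p = 0.0355), at 450.1 and 369.8 CPM and 442 and 423 CPM. No member passed after TAZi under TAM (3.42% of genes passed), nor after YAPi (11.6%) or TAZi (5.24%) under ETH.

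Within ER-Src cells, STAT2 stood highest after JUNBi. Under ETH, STAT2 was at 76.6 and 83.2 CPM after JUNBi and 43.8 and 44.5 CPM after Ctrli (log2 0.75, DESeq2 adjusted p = 0.0544). Under TAM it was at 95.2 and 97.3 CPM against 68.0 and 63.9 CPM (log2 0.50, adjusted p = 0.0142). Neither passed at 0.01, where 2.8% and 6.9% of genes passed and no other member did. With all ER-Src groups in 1 fit, which shares the estimate of spread, STAT2 passed in both (adjusted p = 1.65e-07 and 0.00381). JUNBi libraries differed from Ctrli in the effective-length gap, and its part was not tested. Of the STAT2 and IRF9 targets, 4 of 16 tested rose after JUNBi under ETH, where 1.19% of all genes rose, and 0 fell (median 1.02, against 0.02 over all genes). They were IFI27 (2.46), IFI6 (2.00), IFIT2 (1.64) and IFIT3 (1.37). Under TAM 1 of 15 rose, IFIT3 (0.99), where 2.84% of all genes rose, and 0 fell. STAT3 after JUNBi under TAM stood at 409 and 419.7 CPM against 357 and 306 CPM (log2 0.28, adjusted p = 0.115).

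In MDA-MB-231 set 1, STAT2 and STAT3 counts were higher after several knockdowns than in Ctrli. STAT2 was at 54.7 and 55.4 CPM in Ctrli, 72.4 and 74.5 CPM after YAPi, 64.9 and 64.6 CPM after TAZi, 85.0 and 88.0 CPM after YAPi_TAZi and 117 and 119 CPM after TEADi. STAT3 was at 129.8 and 134 CPM in Ctrli and between 147 and 191 CPM in the 8 knockdown libraries. STAT2 passed after YAPi (log2 0.61, DESeq2 adjusted p = 0.0093), YAPi_TAZi (0.79, adjusted p = 1.33e-09) and TEADi (1.29, adjusted p = 2.06e-13), and STAT3 passed after YAPi (0.63, adjusted p = 7.63e-05), TAZi (0.31, adjusted p = 0.00294), YAPi_TAZi (0.60, adjusted p = 1.55e-09) and TEADi (0.57, adjusted p = 0.000145). STAT5B passed after TAZi, downwards (-0.61, adjusted p = 0.00146), and STAT6 after TEADi, upwards (0.54, adjusted p = 0.00146). The members called were 2, 2, 2 and 3 of 6, where 24.4%, 32.8%, 35.5% and 27.5% of all genes passed. Because Ctrli differed in library kind from all knockdowns, each knockdown was also set against the other knockdowns of set 1, in a fit blocked on replicate number, and then 0 of 6 members passed in any of the 4, where 0.619%, 0.32%, 1.13% and 1.87% of genes passed. STAT2 after TEADi stood at 0.70 there (adjusted p = 0.0205). With either Ctrli library left out, 0 members passed after YAPi, TAZi or YAPi_TAZi and 1 after TEADi.

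On the TPM scale every knockdown group of set 1 had a lower mean than Ctrli for both STAT2 and STAT3. STAT2 was at 35.6 and 33.9 TPM in Ctrli and 10.3 and 27.3 TPM after YAPi, and STAT3 at 40.8 and 44.1 TPM in Ctrli and 24.5 and 36.2 TPM after YAPi. Every replicate 2 knockdown library of set 1 had more STAT2 TPM than its replicate 1 (26.3 to 36.8 against 10.3 to 19.9 TPM), while their CPM were close. For STAT3 every knockdown library of set 1 was below both Ctrli libraries in TPM (17.5 to 36.2 TPM) and above both in CPM. The direction of STAT2 and STAT3 in set 1 thus depended on the scale. STAT4 had 0 counts in 1 TAZi library and both YAPi_TAZi libraries, where 3 counts would be 1.74, 2.13 and 1.46 CPM, and its Ctrli level of 0.886 and 0.739 CPM lies below those limits, which cover counting error only.

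In set 2, the JUNBi libraries held no member past the threshold (3.41% of genes passed), and STAT4 had no adjusted p there. STAT3 was at 60.7 and 82.8 CPM against 67.6 and 42.5 CPM in Ctrli, and STAT6 at 97.8 and 113 CPM against 79.4 and 79.6 CPM. The make-up of the STAT5 pair varied within and between the lines. In ER-Src cells STAT5A made up 7.71% and 5.00% of STAT5 TPM in Ctrli ETH, 19.1% and 24.5% in Ctrli TAM and up to 37.7% in a YAPi TAM library. It made up 33.1% and 36.1% in set 1 Ctrli and 55.9% to 80.3% in set 2, so set 1 overlapped the ER-Src libraries. STAT5A was at 0.37 to 2.35 TPM over all ER-Src libraries and 7.67 to 10.6 TPM in set 2. STAT4 was lower in MDA-MB-231, at most 0.78 TPM in any library, against 0.88 to 3.76 TPM in ER-Src. Lines were prepared and counted apart, so these differences have no test.

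**Figure D4:**
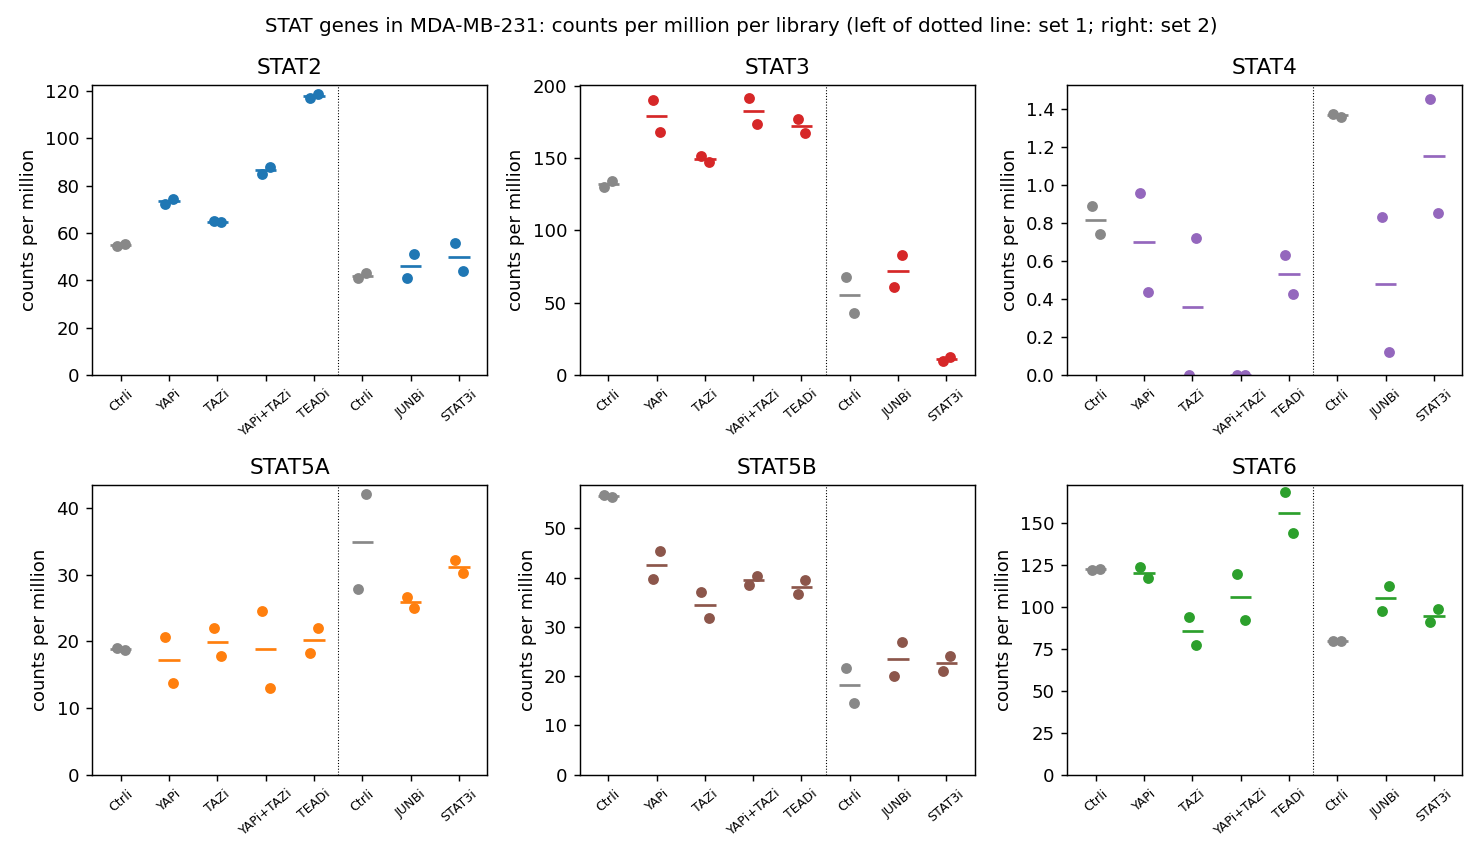
CPM of the 6 STAT genes (axes from 0, 1 panel per gene) in the 16 MDA-MB-231 libraries, 1 point per library, by set and siRNA. STAT3 is at 9.57 and 12.4 in the STAT3i libraries, and STAT4 is at or below 1.45 throughout.

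In the tamoxifen contrast, count and TPM scales parted most for STAT5B. TPM went from 9.34 and 7.03 in Ctrli ETH to 4.86 and 3.64 in Ctrli TAM, a log2 ratio of -0.95, while CPM gave -0.19. The authors' tables give each gene a mean transcript length weighted by the isoforms called in that library, and for STAT5B this was 2754 bases with ETH and 4329 with TAM. With that length entered in the fit, STAT5B stood at -0.66 (DESeq2 adjusted p = 0.0178), still not past the threshold. The isoform calls themselves were not examined here. For STAT3 (0.91 in TPM and 1.03 in CPM) and STAT2 (0.54 and 0.58) both scales gave rises with tamoxifen, and for STAT4 the rise was 0.62 in TPM and 1.03 in CPM.

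**Figure D5:**
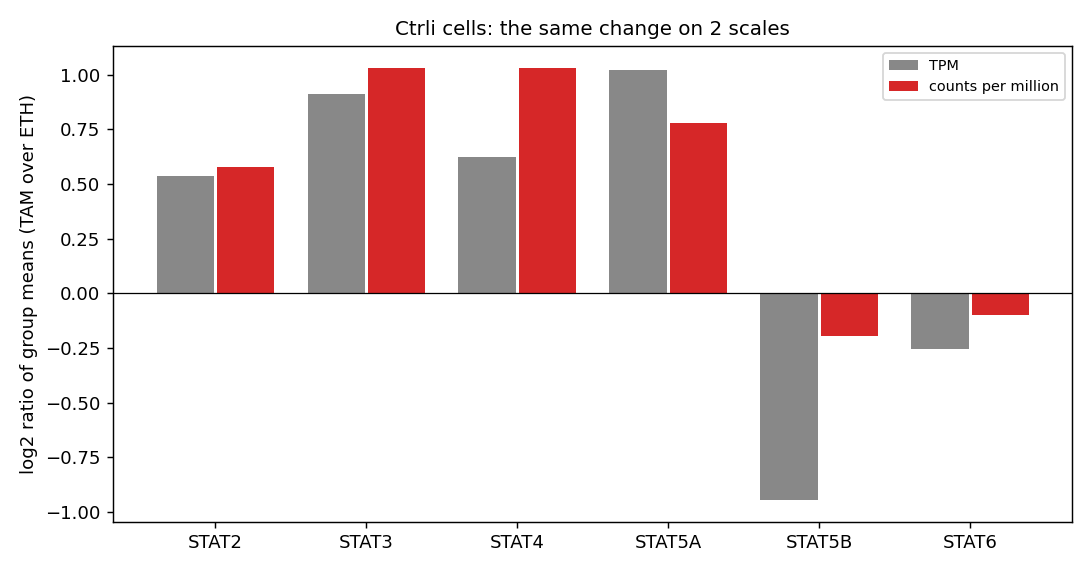
Log2 ratio of group means (TAM over ETH, n = 2 each, Ctrli cells) of each STAT gene in TPM (grey) and in CPM (red). The scales differ most for STAT5B, at -0.95 and -0.19.

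Genes whose TPM pattern over the 10 ER-Src group means was most like each member are given as a description, over the same libraries and with no test. For STAT3 these were FOSL2 (Pearson r = 0.929), IL1R2 (0.925) and CHI3L2 (0.918), and without the STAT3i groups PVR (0.989), SLC39A14 (0.986) and EFNA1 (0.985). For STAT2 they were PROS1 (0.945), PARP8 (0.923) and RND3 (0.898), and for STAT4 S100P (0.921), GLMP (0.909) and SERPINB2 (0.902). For STAT5A they were KLF5 (0.951), SLC39A6 (0.911) and SELENOM (0.910). For STAT5B they were ITGB5 (0.960), PCCB (0.955) and APH1A (0.952), and for STAT6 PRDM4 (0.935), EGLN2 (0.911) and CKMT1A (0.822). About 6389 genes were compared for each member, and no member was among the closest of another.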

How the data were processed

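The authors name the TruSeq Ribo Profile kit for the RNA libraries. RNAs without a poly(A) tail were nearly absent from the set 1 Ctrli and set 2 libraries, unlike the others. Whether this kit made those libraries too is not known from the sources used here. After trimming, the authors aligned the reads with STAR to GENCODE 30 on hg38 (up to 20 alignments a read) and counted them with RSEM. Versions are not given in the sources used here. Per the file headers, each library's table holds expected counts, in which RSEM divides a read that fits several genes between them, and the deposited TPM values, counts scaled by isoform-weighted length and library total. The deposited expected counts were rounded to whole numbers and tested with DESeq2 1.42.0 in R 4.3.3, in a separate run for each of 19 comparisons, over all genes with at least 1 count, with Benjamini-Hochberg adjustment and a threshold of 0.01. CPM values are counts scaled to the library total, and intervals are 95%, from the SE. Fits were checked on simulated data. Alternatives were edgeR 4.0.16 (quasi-likelihood), TMM factors, a mean count of at least 10, no independent filtering, offsets from effective lengths, STAT5A and STAT5B summed, 1 fit per line or set, a replicate block, other reference libraries and each library left out.

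Groups came from sample titles. The set 1 knockdowns were the shallowest libraries. STAT4 had its widest SEs there (1.49 to 2.25), but the SEs of STAT2, STAT3, STAT5B and STAT6 were smaller in set 1 than in set 2. The members and lists were chosen with earlier results of these data known. Besides the 6 members, up to 3 called genes a list with the largest change were named, plus, after values were seen, IL6ST, JAK2, IRF9 (after STAT3i) and the interferon targets after JUNBi. For likeness, the 3 protein-coding genes with the highest r of log2(TPM + 0.1) were named, among genes with a mean TPM of at least 5. Gene positions came from GENCODE 44, to which 93.1% of identifiers matched, and promoters from RefSeq. 1 further STAT gene is not reported here.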

Additional observations from a re-analysis of the deposited data

Results flagged for a closer look

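STAT3 changed less with tamoxifen in STAT3i cells, where it is itself the siRNA target, than in Ctrli cells. The difference was -0.80 on the log2 scale (DESeq2 interaction, adjusted p = 0.00695). The call was lost in 10 of 16 alternatives, including edgeR. The remaining cases are members whose estimates had opposite signs in ER-Src and MDA-MB-231 cells after the same siRNA, with every library of the knockdown on one side of its controls in each line. How many of all genes met this rule was not counted, so the cases are a listing and not a result about the family. None of the ER-Src estimates passed the test. They are log2 ratios of mean normalized counts plus 0.5, and the differences between lines were not tested.

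STAT2 stood at -0.12 after YAPi in ER-Src cells with ETH and at 0.61 in MDA-MB-231 set 1. After TAZi it stood at -0.10 with TAM and -0.13 with ETH in ER-Src cells and at 0.37 in set 1. STAT6 after TAZi stood at 0.16 with TAM and 0.21 with ETH in ER-Src cells and at -0.38 in set 1. In set 1 the library kind moved with the knockdown, and its part was not tested.

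STAT6 after JUNBi stood at -0.22 with TAM in ER-Src cells and at 0.24 in set 2, and after STAT3i at -0.31 with ETH and 0.16 in set 2. STAT4 after JUNBi stood at 0.45 with ETH and -1.54 in set 2, where it had at most 1.37 CPM in any Ctrli or JUNBi library. STAT5A after JUNBi stood at 0.74 with ETH and -0.61 in set 2.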

How the results depend on the processing

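For 114 estimates (6 members in 19 comparisons) there were 1349 alternative values. Of these, 1247 kept their side of the threshold, 79 lost the call, 20 gained it and 3 turned sign with a call in the main fit or the alternative. The 1247 include 96 values that changed sign, where neither the main fit nor the alternative passed. The counts of members past the threshold stayed close in 172 alternatives and moved in 67. For TAM against ETH in Ctrli the count of 2 became 1 with the replicate block, in STAT3i or JUNBi libraries, and with each library left out (1 to 1). For YAPi under TAM the count of 1 became 0 with the block, with 1 fit over all groups and with each library left out (0 to 0). Counts of 0 became 1 for JUNBi under TAM (TMM factors, 1 fit), JUNBi under ETH (1 fit; libraries left out 0 to 1) and TAZi under ETH (length offsets, STAT5B at -0.78, adjusted p = 0.00234). For STAT3i under ETH the count of 1 became 0 with edgeR and 2 against JUNBi libraries. For the interaction of STAT3i with TAM it became 0 with edgeR, TMM factors, no independent filtering, length offsets or JUNBi libraries as reference (libraries left out 0 to 1). For STAT3i in MDA-MB-231 the count of 0 became 1 without independent filtering, with length offsets, in 1 fit and against JUNBi libraries (libraries left out 0 to 1).

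In MDA-MB-231 set 1, all 4 counts became 0 against the other knockdowns with the replicate block and against the controls of both sets. In the first of these STAT2 turned to -0.27 after YAPi and -0.017 after YAPi_TAZi, and STAT3 to -0.28 after TAZi. The YAPi count of 2 became 1 with TMM factors, no independent filtering, length offsets or the block (libraries left out 0 to 1). The TAZi count of 2 became 0 with TMM factors, length offsets, 1 fit or the block and 1 with the count filter (libraries left out 0 to 2). The YAPi_TAZi count of 2 became 1 with length offsets (libraries left out 0 to 2), and the TEADi count of 3 became 1 with the block (libraries left out 1 to 3). TMM factors moved the median of all genes in set 1 from -0.02 to -0.13 for YAPi and from 0.02 to -0.12 for TAZi. The cause of these changes was not tested. In a fit with 1 library left out, the lone library was assumed to vary like the others.

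Replicate numbers gave only 2 pairs, and deviations of same-numbered libraries correlated at -0.06 to 0.39 over comparisons of 2 groups and -0.17 to 0.54 in the interactions. No label ties the numbers, so they are taken to share a number only, but among the set 1 knockdowns the number moved with the effective-length gap (48.0 bases in replicate 1, 74.6 in replicate 2), which both Ctrli libraries (75.0) did not follow. Set 2 could not be blocked, since its control numbers differ from those of its knockdowns. With 2 libraries a group, small changes of STAT4 and STAT5A, the members with the lowest counts, were not detectable. No alternative was run for the counts over target lists.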
